A study of Mus musculus with 5 samples.

Results

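The metallothioneins measured here were Mt1, Mt2, Mt3 and Mt4, the 4 genes of this family among 18193 named genes on an Affymetrix mouse 3' expression array. Their 5 probe sets, the groups of short probes that each give 1 intensity per array, were taken as those that the array annotation assigns to a single one of these genes. Mt1 had 2 probe sets and each of the other genes had 1. The duct group held 3 arrays of TROP-2+ cells, sorted from the upper part of the trachea after pronase had stripped the surface epithelium. The basal group held 2 arrays of TROP-2+ITGA6+ cells, sorted from surface epithelium of the lower part of the trachea after dispase digestion. All mice were C57BL/6, of both sexes and 8 to 12 weeks old, and each array was a separate pool of 10 to 15 animals. The enzyme, the tracheal section and the gate all differ between the groups as the cell type does, so their effects cannot be told apart.

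Metallothioneins are small, cysteine-rich proteins that bind zinc and copper and take up cadmium. Mt1 and Mt2 are made by most tissues and are switched on by metals through the transcription factor MTF-1, by glucocorticoids and by cytokine and oxidative stress. Mt3 is best known from the brain, and Mt4 from the differentiating cells of stratified squamous epithelia such as tongue and epidermis. In mice the genes lie in a cluster on chromosome 8, in the order Mt4, Mt3, Mt2, Mt1, all on the same strand. RefSeq also places Gm39227, a long non-coding RNA gene without a probe set of its own on this array, between Mt3 and Mt2.

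The upstream sequences of the 3 genes on which the results turn are printed, and that of Mt1 is not compared, as set out below. Each is the 250 bases before the start that the RefSeq table gives (build GRCm38.p6, plus strand). The Mt4 window is chr8:94136954-94137203, that of Mt2 chr8:94172368-94172617 and that of Mt1 chr8:94178839-94179088. Capitals mark matches on either strand to the core of the metal response element (MRE), the site bound by MTF-1, searched as TGCACNC or TGCGCNC.
Mt4: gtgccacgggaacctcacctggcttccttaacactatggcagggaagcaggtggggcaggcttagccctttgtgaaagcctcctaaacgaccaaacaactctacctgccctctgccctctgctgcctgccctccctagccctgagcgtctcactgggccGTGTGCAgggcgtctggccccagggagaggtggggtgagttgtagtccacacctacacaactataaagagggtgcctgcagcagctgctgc
Mt2: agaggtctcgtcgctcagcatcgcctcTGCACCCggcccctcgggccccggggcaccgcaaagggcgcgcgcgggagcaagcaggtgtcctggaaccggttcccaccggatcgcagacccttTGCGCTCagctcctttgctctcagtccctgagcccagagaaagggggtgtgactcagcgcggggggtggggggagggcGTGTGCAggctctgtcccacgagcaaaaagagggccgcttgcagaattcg
Mt1: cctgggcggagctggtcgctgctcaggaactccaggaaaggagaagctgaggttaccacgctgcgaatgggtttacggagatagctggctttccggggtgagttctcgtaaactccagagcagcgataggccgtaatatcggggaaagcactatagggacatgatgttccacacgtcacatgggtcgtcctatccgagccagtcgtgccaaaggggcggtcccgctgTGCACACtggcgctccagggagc

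The window of Mt2 held 3 such matches, that of Mt4 held 1 and that of Mt3 held 0. The Mt1 window, which may miss part of a promoter as set out below, held 1. Of 32851 mouse windows of the same length, 21.4% held at least 1 match and 1.26% held at least 3. The match of Mt4 begins 91 bases before the start, and the same 7 letters (GTGTGCA) occur in the Mt2 window, 50 bases before the start. A TATA box, searched as TATAAA on either strand, was found in the Mt4 window, beginning 30 bases before the start, and in 12.4% of all windows. Unlike those of Mt4 and Mt3, the Mt2 window held an antioxidant response element, searched as TGACNNNGC and present in 10.2% of windows. It begins 79 bases before the start and overlaps a match to the AP-1 motif TGANTCA, which 6.75% of windows held. These are letter matches within fixed windows. The windows follow the start in the RefSeq table, and bases beyond them were not used here. RefSeq lists more than 1 Mt1 transcript, and this window follows 1 start, so part of the promoter of another Mt1 start may lie outside it. The motif counts of Mt1 are therefore not set against those of the other genes.

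The arrays were scaled by the authors to a common trimmed mean. With no detection calls at hand, the brightest of 27 probe sets for Bacillus transcripts served on each array as a measure of background; it lay between 39.5 and 86.5. The share of probe sets above it was 67.2% to 74.6% on the duct arrays and 62.5% to 71.6% on the basal arrays. Duct replicate 1 stood apart: its median was 92.3, while duct replicates 2 and 3 and both basal arrays had medians of 146.5 to 152.8. Of 6 markers of airway basal cells, 2 were called higher in duct cells and 0 lower. Over all tested genes, 0.838% were called higher in duct cells and 0.973% in either direction. The called ones were Krt14, at 19816 ± 2251 in duct cells and 1430 ± 146 in basal cells, and Krt17, at 8045 ± 379 in duct cells and 2295 ± 38.5 in basal cells (SD, n = 3 and n = 2). Krt15, Krt5 and Trp63 were bright in both groups and did not pass the test, and Ngfr had a log2 fold change of -1.76 that did not pass. The number of arrays limits the precision of all values below, which are intensities in arbitrary units. Levels are compared between groups for 1 probe set at a time.

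Mt4 differed most between the cell populations among the 4 metallothioneins. Duct cells carried a strong Mt4 signal on every array, while basal cells had a signal close to background. Its probe set measured 14305, 7013 and 11704 on duct replicates 1 to 3, against 101 and 67.7 on basal replicates 1 and 2. All 3 duct arrays were far above the Bacillus controls. Of the 2 basal arrays, replicate 1 was above its brightest control (59.7) and replicate 2 was below its own (86.5).

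Mt4 averaged 11007 ± 3696 in duct cells (SD, n = 3) and 84.3 ± 23.6 in basal cells (SD, n = 2). Since the basal signal lay at or near background, the size of the fold depends on background values and on the pseudocount, while the lack of overlap does not. On the log2(intensity + 16) scale the fold change, duct minus basal, was 6.74 (SE 0.38, 95% interval 5.79 to 7.68), with a limma adjusted p of 0.00583 over 12536 genes. Of the 4 metallothioneins Mt4 alone passed the test, at a threshold of 0.05, in a table where 0.973% of genes passed in either direction and 0.838% passed as higher in duct cells. The call rested on few arrays: without basal replicate 1, basal replicate 2 or duct replicate 3 the adjusted p was 0.0613, 0.0710 and 0.0631, although the log2 fold change over all leave-one-out fits stayed between 6.50 and 7.03.

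**Figure D1:**
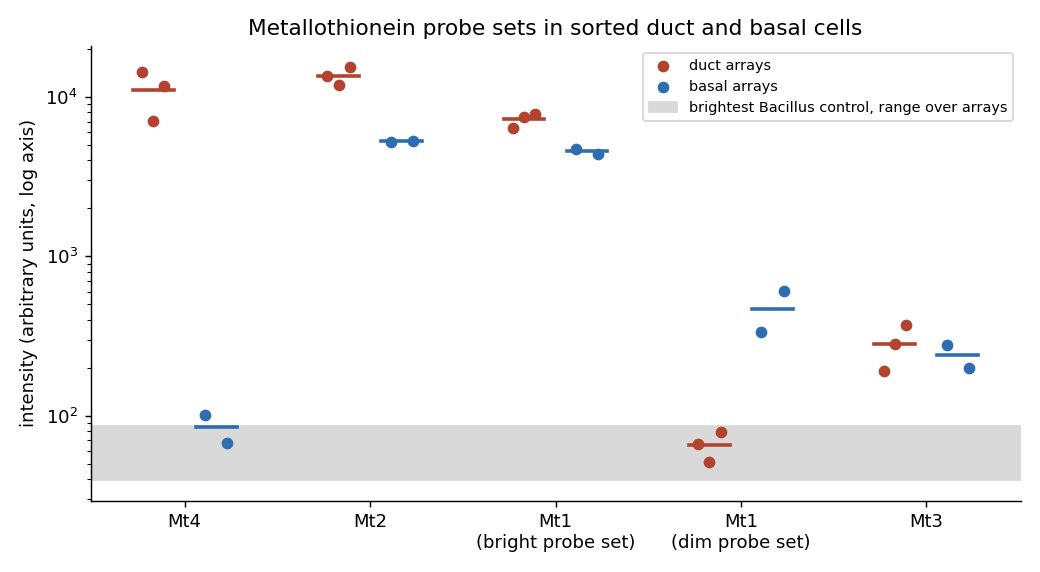
Intensity of the 5 metallothionein probe sets (log axis, arbitrary units) on the 3 duct arrays (red, left of each pair) and the 2 basal arrays (blue, right), with horizontal lines at the group means and a grey band for the brightest Bacillus control over the 5 arrays. Mt4 stands at 7013 to 14305 on the duct arrays and at 67.7 and 101 on the basal arrays, Mt2 and the bright Mt1 probe set are higher on every duct array, and the dim Mt1 probe set lies the opposite way.

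Mt2 was bright in both populations and higher on every duct array. It measured 13416, 11828 and 15475 on duct replicates 1 to 3, against 5223 and 5317 on basal replicates 1 and 2. The groups did not overlap, and the lowest duct array was 2.22 times the highest basal array. Means were 13573 ± 1828 in duct cells (SD, n = 3) and 5270 ± 67.0 in basal cells (SD, n = 2). The log2 fold change was 1.35 (SE 0.24, 95% interval 0.75 to 1.96) and did not pass over all genes (limma adjusted p = 0.0742, unadjusted p = 0.00164). Of all tested genes, 3.45% had a larger fold change in the same direction.

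Mt1, the other broadly expressed and metal-inducible member, is represented by a bright and a dim probe set. The bright one, which stood for the gene in the fit, measured 6335, 7481 and 7849 on duct replicates 1 to 3, against 4733 and 4394 on basal replicates 1 and 2. Every duct array exceeded both basal arrays, by a smaller margin than for Mt2. Its log2 fold change was 0.66 (SE 0.24, 95% interval 0.07 to 1.25) and did not pass (limma adjusted p = 0.232, unadjusted p = 0.0349). The suffix of its name marks a probe set whose probes can match more than 1 transcript, so signals of related sequences cannot be told apart.

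The dim Mt1 probe set went the other way. It measured 66.6, 51.2 and 79.0 on duct replicates 1 to 3, against 333.4 and 604.4 on basal replicates 1 and 2. Basal cells were thus higher on both arrays, and the lower basal array was 4.22 times the highest duct array. Both basal arrays were above their brightest Bacillus control, as were 2 of the 3 duct arrays, by small margins. With each probe set as its own row the log2 fold change was -2.53 (SE 0.36, limma adjusted p = 0.0835 over 27022 probe sets). In that fit 0.233% of probe sets passed, Mt4 among them (adjusted p = 0.0112). When the probe sets of Mt1 were averaged, the gene's log2 fold change turned to -0.94 (adjusted p = 0.136). A direction for Mt1 therefore depends on the probe set, and the array annotation links the pair to different transcript records.

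Mt3, the member known from neurons, did not separate the groups. It measured 189.6, 279.5 and 371.6 on duct replicates 1 to 3, against 278.1 and 200.3 on basal replicates 1 and 2. All 5 values were above the Bacillus controls, and the groups overlapped. The log2 fold change was 0.18 (SE 0.35, 95% interval -0.68 to 1.05, limma adjusted p = 0.813). Its sign turned without duct replicate 3 (-0.03) and without basal replicate 2 (-0.04). All 5 probe sets of the family passed the filter on dim probe sets. By gene, 3 of 4 members were higher on every duct array than on either basal array, in a table where 16.5% of genes were so placed and 39.1% did not overlap in either direction. That count takes Mt1 by its bright probe set; the dim one lay the opposite way, which would make it 2 of 4.

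The contrast of Mt4 with Mt1 and Mt2 was taken within each array, where a common scaling of the array nearly cancels. For every array the mean of log2 Mt1 and log2 Mt2 was subtracted from log2 Mt4. The resulting log ratio was 0.63, -0.42 and 0.09 on duct replicates 1 to 3, against -5.41 and -5.86 on basal replicates 1 and 2. The groups did not overlap, and the gap between them was far wider than the spread within either. The group means, 0.10 ± 0.53 in duct cells and -5.64 ± 0.31 in basal cells (SD, n = 3 and n = 2), differed by 5.73 (exact permutation test, 2-sided, p = 0.1, the smallest p that the 10 splits of 5 arrays allow). This shows unequal change between groups; as the probe sets differ in brightness, the ratio itself does not rank Mt4 against Mt1 or Mt2 within a cell.

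**Figure D2:**
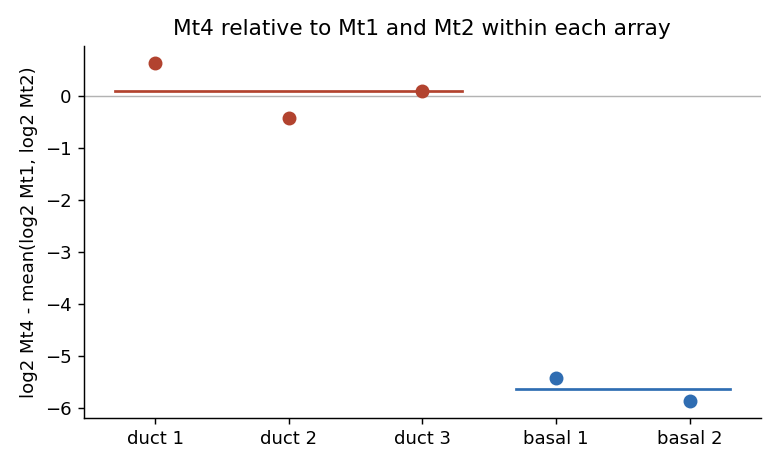
Log2 Mt4 minus the mean of log2 Mt1 and log2 Mt2 (vertical axis, log2 units) on each of the 3 duct arrays (red) and the 2 basal arrays (blue), with lines at the group means of 0.10 and -5.64. The lowest duct array is at -0.42 and the highest basal array at -5.41.

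The balance between Mt2 and Mt1 also differed between groups. Log2 Mt2 minus log2 Mt1 (bright probe set) was 1.08, 0.66 and 0.98 on duct replicates 1 to 3, against 0.14 and 0.27 on basal replicates 1 and 2. The difference between group means was 0.70, and it was not tested.

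The genes that flank the cluster were examined next. Of the 4 measured genes on each side of the cluster, 6 were tested. With limma, 0 of them passed at an adjusted p under 0.05 and 0 at an unadjusted p under 0.05. Over all tested genes these shares were 0.973% and 18.5%, so a count of 0 among 6 does not set the neighbours apart from the table. On the Mt4 side, Bbs2, a gene of cilium-directed transport, Ogfod1, an oxygenase gene, and Nudt21, an mRNA cleavage factor gene, had log2 fold changes of 0.18, 0.28 and 0.25. Beyond Mt1, Nup93, a nuclear pore gene, and Herpud1, a gene of protein quality control at the endoplasmic reticulum, were at -0.22 and -0.22. The probe set annotated to Mir138-2 was at -0.16; a 3' expression array does not measure the mature miRNA. The outermost gene on the Mt4 side, 4930488L21Rik, and Slc12a3, a kidney salt transporter gene, were too dim to be tested.

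**Figure D3:**
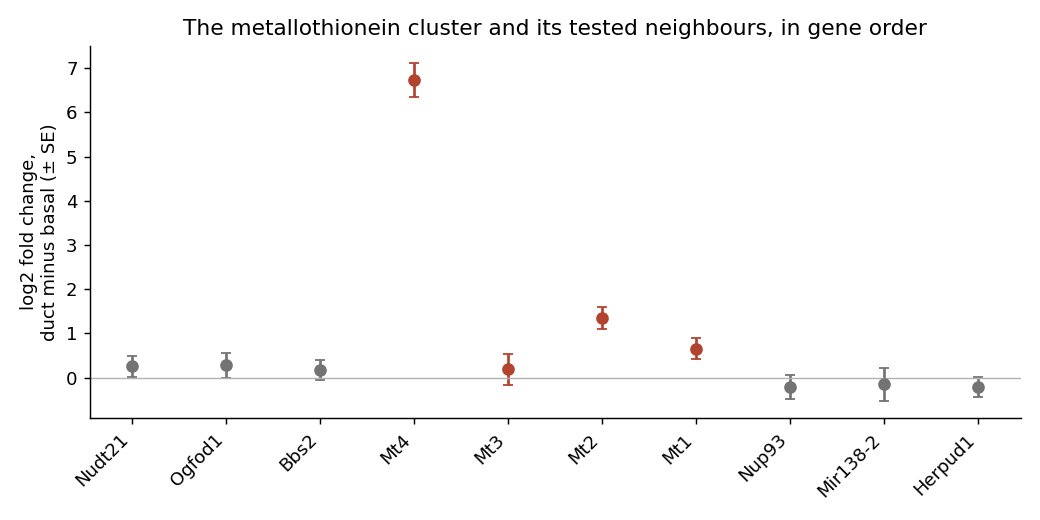
Log2 fold change, duct minus basal (points, with SE bars from limma), for the 4 metallothioneins (red) and their 6 tested neighbours (grey), in gene order and not to scale. Mt4 stands at 6.74, Mt2 at 1.35 and Mt1 at 0.66, while the neighbours lie between -0.22 and 0.28.

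Genes that handle metals were then compared, together with genes that respond to inducers of Mt1 and Mt2. Of 66 genes on 7 lists, 64 were on the array and 57 were tested. With limma 0 passed at an adjusted p under 0.05, where 0.973% of all tested genes passed. At an unadjusted p under 0.05, 5 were higher and 6 lower in duct cells, or 19.3% of the 57, against 18.5% of all tested genes. Mtf1, which encodes the metal-sensing activator of Mt1 and Mt2, measured 599.0, 566.8 and 674.7 on duct replicates 1 to 3, against 1115 and 552.4 on basal replicates 1 and 2. Its groups overlapped (log2 fold change -0.35, adjusted p = 0.635).

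Zinc exporters of the Slc30 family had a median log2 fold change of -0.17 over 7 tested members, near the -0.12 of all tested genes. Slc30a1, the plasma membrane exporter that is itself a target of MTF-1, measured 3469, 2080 and 2543 on duct replicates 1 to 3, against 1567 and 1520 on basal replicates 1 and 2. Every duct array was higher, but the fold change of 0.77 did not pass (adjusted p = 0.254). Slc30a3, the transporter that loads zinc into synaptic vesicles, had a fold change of -0.76 (adjusted p = 0.345) at intensities of at most 143.2.

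Zinc importers of the Slc39 family had a median of -0.06 over 11 tested members. Slc39a6, a plasma membrane importer, measured 14816, 10422 and 16087 on duct replicates 1 to 3, against 4791 and 4665 on basal replicates 1 and 2. The groups did not overlap, and the log2 fold change of 1.52 missed the threshold (SE 0.28, adjusted p = 0.0786). Slc39a9 was at -0.84 (adjusted p = 0.150), with 370.4 ± 34.4 in duct cells and 675.1 ± 17.8 in basal cells (SD, n = 3 and n = 2).

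Copper genes, which include chaperones and the pumps Atp7a and Atp7b, had a median of -0.20 over 12 tested members. Atp7b measured 275.6, 264.4 and 377.2 on duct replicates 1 to 3, against 864.8 and 544.9 on basal replicates 1 and 2. Basal cells were higher on both arrays, and the fold change of -1.14 did not pass (adjusted p = 0.150). Sco1, a copper chaperone gene of cytochrome oxidase, was at -1.35, and its groups overlapped (adjusted p = 0.343). Sod1, the copper and zinc superoxide dismutase, averaged 28982 ± 2449 in duct cells and 29678 ± 953 in basal cells (log2 fold change -0.04); it was chosen after its values were seen.

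Iron genes had a median of 0.08 over 9 tested members. Hmox1, the heme oxygenase that is induced by heme, oxidants and metals, measured 4823, 3890 and 1776 on duct replicates 1 to 3, against 378.8 and 364.7 on basal replicates 1 and 2. Duct cells were higher on every array and spread widely among themselves (log2 fold change 3.06, SE 0.46, adjusted p = 0.0551). Slc40a1, the iron exporter ferroportin, was lower in duct cells, at 130.8, 98.2 and 93.2 on duct replicates 1 to 3 and 326.6 and 362.9 on basal replicates 1 and 2 (log2 fold change -1.56, adjusted p = 0.0672).

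Genes that respond to glucocorticoids had a median of -0.36 over 10 tested members. Tsc22d3, the glucocorticoid-induced leucine zipper gene, was lower in duct cells: it measured 364.3, 354.3 and 570.7 on duct replicates 1 to 3, against 1560 and 2039 on basal replicates 1 and 2 (log2 fold change -2.05, adjusted p = 0.0565). Cebpd, a transcription factor gene of the acute phase, was at -1.08 (adjusted p = 0.114), with 1780 ± 165 in duct cells and 3817 ± 738 in basal cells (SD, n = 3 and n = 2). Neither passed. Of the 10 tested members, 4 had positive and 6 had negative fold changes. The highest was that of Errfi1, at 0.77 (limma adjusted p = 0.172), with every duct array above both basal arrays.

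The list of IL-6 and STAT3 genes, another route to Mt1 and Mt2, had a median of -0.32 over 7 tested members. Socs3, the feedback inhibitor induced by STAT3, averaged 2112 ± 411 in duct cells and 5202 ± 877 in basal cells (SD, n = 3 and n = 2; log2 fold change -1.30, adjusted p = 0.101). Il6st, the shared signalling receptor chain gp130, was at -0.66 (adjusted p = 0.275). None of the 7 passed over all genes with limma. At an unadjusted p under 0.05, 1 was lower, where 18.5% of all tested genes had such a p in either direction. All 7 fold changes were negative, in a table with a median of -0.12. For 3 of the 7 every duct array was below both basal arrays, where 39.1% of all tested genes did not overlap in either direction.

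**Figure D4:**
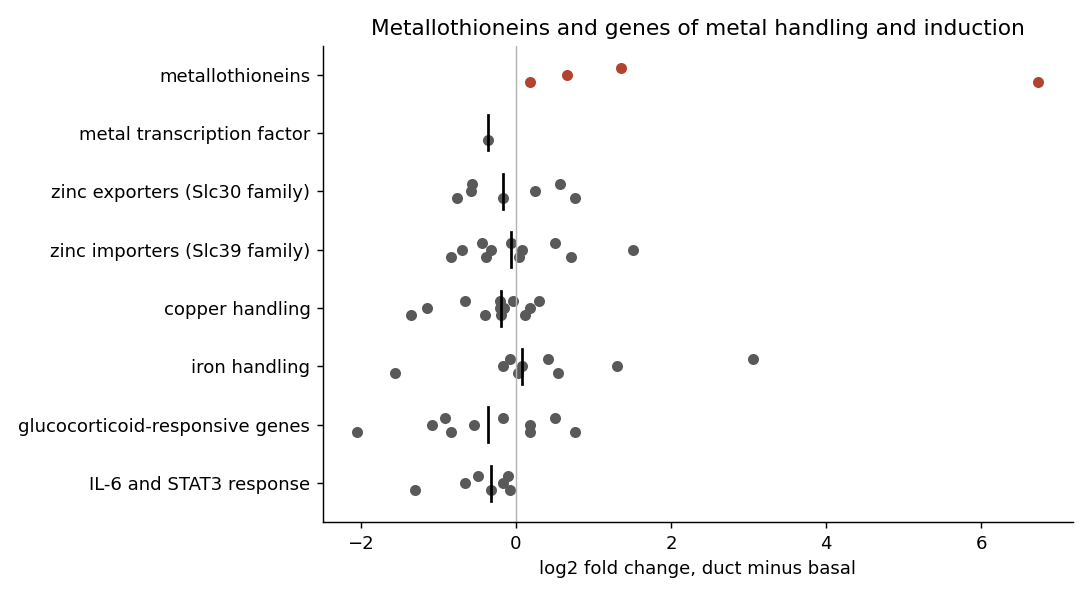
Log2 fold change, duct minus basal (horizontal axis), of the 4 metallothioneins (red) and of the 57 tested genes on 7 lists of metal handling and induction (grey points, 1 per gene; black bars are list medians). Mt4 lies at 6.74, beyond every listed gene; Hmox1 is the point at 3.06 and Tsc22d3 the one at -2.05.

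The genes whose profiles came closest to each metallothionein were found by the root mean square distance between log2 values over the 5 arrays, each gene centred on its own mean. For Mt4 these were Lgals7, a galectin of stratified epithelia (distance 0.36), Lipf, a gastric lipase gene (0.37), Sprr1b, a cornified envelope precursor (0.49), Tgm3, a transglutaminase of the epidermis and hair follicle (0.55), and Chit1, a chitinase gene (0.55). Their Pearson correlations with Mt4 over the 5 arrays were 0.995 to 0.999, a description in which the arrays, their scaling and the 2 groups are shared. On both basal arrays Lgals7, Lipf, Sprr1b and Chit1 were below the brightest Bacillus control, so the basal side of these distances, and with it their order, rests on background values. Distances for Mt1 and Mt2 were far smaller, and the reason was not tested. Krt5, a basal cell keratin, was among the 5 closest to Mt1 (0.06), with Zfp46, Fermt2, Tfdp1 and Gar1. The 5 closest to Mt2 were Zfp367, Mif, Asns, Ugcg and Pdzk1ip1, at 0.05 to 0.07. For Mt3 they were Fastkd1, Camk2n2, Tmem125, Sox13 and C1qtnf4, at 0.06 to 0.07.

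**Figure D5:**
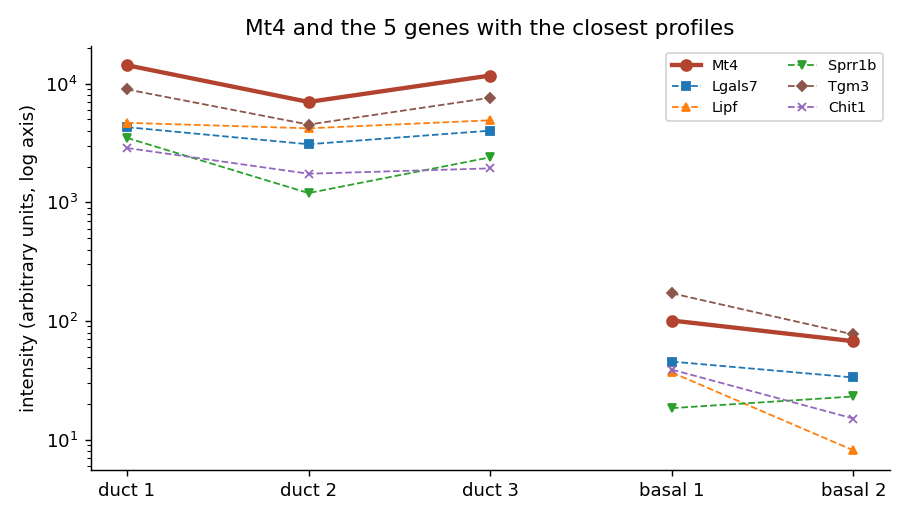
Intensity (log axis, arbitrary units) of Mt4 (thick red line) and of the 5 genes with the closest profiles on the 3 duct and the 2 basal arrays; lines join arrays of 1 group only to guide the eye. All 6 genes are at 1197 or more on the duct arrays and at 171.4 or less on the basal arrays, and all 6 are lowest among the duct arrays on replicate 2.

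Some markers of other cells moved with Mt4. Of 13 markers of stratified squamous epithelium, 11 rose and 0 fell with limma at an adjusted p under 0.05, in a table where 0.838% of genes passed as higher. Ivl and Lor did not pass, at log2 fold changes of 0.92 and -0.50 (limma adjusted p = 0.475 and 0.705), and their groups overlapped. The 13 markers were listed with earlier results of these data known, and their median log2 fold change was 3.93. The most intense of them, the suprabasal keratins Krt4 and Krt13, averaged 23479 ± 2330 and 22366 ± 3357 in duct cells, against 6496 ± 1040 and 1724 ± 416 in basal cells (SD, n = 3 and n = 2). The summed intensity of all 13 markers was 100518 to 132143 on the duct arrays and 10987 to 13255 on the basal arrays. All 3 tested thyroid markers were higher on every duct array than on either basal array, where 16.5% of all tested genes were so placed. Of these, Tg, the thyroglobulin gene, alone passed with limma at an adjusted p under 0.05. It measured 8779, 16062 and 20119 on duct replicates 1 to 3, against 11.1 and 53.2 on basal replicates 1 and 2. Slc5a5, the iodide transporter, and Pax8 had log2 fold changes of 1.30 and 1.09 and did not pass (limma adjusted p = 0.209 and 0.265). The summed intensity of the 4 measured thyroid markers was 9154 to 20879 on the duct arrays and 211.6 to 234.8 on the basal arrays. The part of squamous or thyroid cells in the Mt4 signal was not tested, and in sorted pools more cells of a type and more RNA per cell cannot be told apart.

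Of 14 tested markers of leukocytes, fibroblasts, ciliated and club cells, 0 passed with limma at an adjusted p under 0.05, where 0.973% of all genes passed. At an unadjusted p under 0.05 there were 3 of the 14, where 18.5% of all genes had such a p. The club cell markers Cyp2f2 and Scgb3a2 averaged 25514 ± 614 and 22191 ± 1071 in duct cells, against 30111 ± 742 and 32485 ± 287 in basal cells (SD, n = 3 and n = 2). The basal arrays differed widely in other club markers. Scgb1a1 was at 9934 and 32690 on basal replicates 1 and 2, and Scgb3a1 at 7615 and 28609. On the duct arrays Scgb1a1 was at 12567 to 18411 and Scgb3a1 at 13393 to 23221. The ciliated cell markers Ccdc39 and Tekt1 averaged 90.1 ± 34.8 and 130 ± 89.4 in duct cells, against 296 ± 46.7 and 185 ± 58.3 in basal cells. The groups overlapped for Tekt1. They also overlapped for Dnah5, the other tested ciliated marker, which went the opposite way (126 ± 74.6 in duct cells, 85.2 ± 4.77 in basal cells). The endothelial markers Pecam1 and Cdh5, too dim to be tested, were at 10.5 to 87.0 on the duct arrays and 38.6 to 129.3 on the basal arrays. The most intense marker of the leukocyte list was Lyz2, a lysozyme gene, at 12275 to 19517 on the duct arrays and 5374 to 16327 on the basal arrays. Cd14, a receptor of myeloid cells, had a log2 fold change of -1.21 (limma adjusted p = 0.153), and Cd68, of the same list, 0.73 (limma adjusted p = 0.239). Of the 4 tested leukocyte markers, 3 had positive fold changes and 1 had a negative one. The most intense fibroblast marker was Dcn, the gene of a collagen-binding proteoglycan, at 1520 to 3123 on the duct arrays and 3106 to 4090 on the basal arrays. Col1a1, a collagen gene, was at a log2 fold change of 0.33 (limma adjusted p = 0.791). Ptprc, the pan-leukocyte antigen, averaged 629.6 ± 408.1 in duct cells and 393.7 ± 197.0 in basal cells (SD, n = 3 and n = 2).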

How the data were processed

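RNA of 3 duct and 2 basal samples was hybridised to 1 array each. The deposited intensities are linear, 1 per probe set and array. From those values, the authors had scaled every array to a mean of 500.0 after trimming 2% at each end. How probe sets were summarised, corrected for background and computed is not given in the sources used here. The table held 0 columns of other samples.

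Of 45101 probe sets, 64 controls were left out. Platform annotation gave 34945 probe sets 1 gene symbol, 932 several and 9160 none; 0 symbols needed updating against the RefSeq table of GRCm38.p6. The probe set with the highest mean log2 value stood for each gene, and the lowest 40% of probe sets by that mean were left out, leaving 12536 genes. Log2(intensity + 16) values, a scale that understates changes of dim genes, were fitted in limma 3.58.1 (lmFit, then eBayes; R 4.3.3), 2-sided, on all 5 arrays without covariates. P-values were adjusted over all tested genes (Benjamini-Hochberg), with a threshold of 0.05. Simulated arrays with known changes were also fitted, with normal noise drawn from the fit's own variances. They cannot check whether the real arrays meet the assumptions of the fit. Figures were drawn with matplotlib 3.10.9.

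The members, lists and tests were chosen with earlier results of these data known. Named genes were all metallothioneins, Mtf1, each list's called members and its 2 largest absolute fold changes, 4 measured neighbours on each side, the 5 closest profiles (without clone, RIKEN and predicted-gene names) and the 2 most intense markers of each cell type. Genes named outside this rule were chosen after their values were seen. Alternatives were other scalings, pseudocounts, filters, probe set averaging, moderation, array weights, a replicate block and leaving out each array.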

Additional observations from a re-analysis of the deposited data

How the results depend on the processing

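The positive sign of Mt2 and Mt4 and the negative sign of the dim Mt1 probe set held in every alternative in which they were tested; a filter on the lowest 60% removed the dim Mt1 probe set. Mt4 ran from 6.17 to 7.03 and lost its call with the replicate number as a block (6.66, adjusted p = 0.112) and without basal replicate 1, basal replicate 2 or duct replicate 3 (6.50 to 7.03 over the left-out arrays). The sources describe separate pools, and same-numbered arrays did not deviate together (correlations across genes of -0.08 and -0.04). With 2 basal arrays, whose deviations mirror each other, these correlations cannot exclude a shared preparation. Under the replicate block limma called 0 genes (1608 at an unadjusted p under 0.05). Mt2 passed with a pseudocount of 64 (1.35), with the lowest 60% left out (1.35) and with an intensity trend and robust fit (1.35). Its leave-one-out values were 1.25 to 1.45. Mt1 passed with the trend and robust fit (0.66, adjusted p = 0.0236), was at 0.59 to 0.75 with an array left out, and turned to -0.94 when its bright and dim probe sets were averaged. Mt3 turned to -0.0334 with the replicate block and to -0.0334 and -0.0371 without duct replicate 3 and basal replicate 2; leaving out arrays gave -0.0371 to 0.42. The dim Mt1 probe set passed with array medians centred (-2.32), a pseudocount of 64 (-2.00) and the trend and robust fit (-2.53), and ran from -2.94 to -2.11 with an array left out. The log ratio of Mt4 to Mt1 and Mt2 differed by 5.17 with a pseudocount of 64 and by 5.47 to 6.00 with an array left out.

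Over all genes, against 122 called, the count was 338 with medians centred, 303 with a pseudocount of 64, 36 with no filter, 408 with the lowest 60% left out, 191 with the mean of probe sets, 942 with the trend and robust fit, and 0 to 48 with an array left out. The split of calls also moved: 105 higher and 17 lower as reported, 281 and 57 with medians centred. The median of all genes was -0.12 as reported, -0.05 with quantile normalization and 0.08 with medians centred. Of the 57 list members, 0 as reported, the count was 1 with quantile normalization, 2 with medians centred, 4 with a pseudocount of 64, 4 with the lowest 60% left out, 2 with the mean of probe sets, 7 with the trend and robust fit and 3 with array weights; Hmox1 was among them in all 7 of these, Tsc22d3 in 5 and Slc39a6 in 4. The causes were not tested.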
